A study of Homo sapiens with 54 samples.

Results

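Untreated MDA-MB-231 cells sampled after 48 h were compared with untreated cells sampled after 24 h, which asked what a longer time in culture alone did to their RNA. By their labels, 6 of the 54 libraries of the series belong to this comparison, 3 at 24 h and 3 at 48 h, all of batch 1. The line MDA-MB-231 was long ago derived from breast cancer, has mesenchymal traits and lacks the receptors for oestrogen and progesterone. All 6 cultures grew in Dulbecco's Modified Eagle's Medium with fetal bovine serum and received neither Compound Kushen Injection (CKI) nor any mixture of its compounds. The series states that replicates are biological, and the density of the cells and any change of medium between 24 and 48 h are not given in the sources used here. The rest of the series treated the same line with CKI, with CKI lacking single or several compounds, or with small sets of its compounds, at a dose equivalent to 2 mg/ml. Of these, the libraries of CKI, of MOO (the compounds Mac, Omt and Ospc alone) and of N_2 (CKI without Omt and Ospc) at 24 and 48 h of batch 1 are used below, and their change with time shares no library with that of untreated cells. The same holds for OO and N_3, whose change with time was not analysed here. Untreated cells of batch 2 were sampled at 48 h only, so that they give a level and no change. Polyadenylated RNA was sequenced, and the values are the reads counted per gene. The 6 untreated libraries held 18649291 to 24708584 counts, and 14187 of the 27978 genes had enough counts for a test. Levels are given as CPM, that is, counts per 1000000 counts of the library after adjustment for composition by the TMM method, and a gene was called at an adjusted p under 0.05 in edgeR's quasi-likelihood test over all 14187 genes.

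Several well-known programmes read the conditions in a dish. Growing cells copy their DNA and divide under the control of E2F and FOXM1, and they spend much of their RNA on ribosomal proteins. When secretory proteins fold poorly in the endoplasmic reticulum (ER), the factors ATF6 and XBP1 switch on chaperones such as HSPA5. When amino acids run short or the ER is stressed, ATF4 switches on genes of amino acid synthesis and transport. Low oxygen stabilises HIF1A, which switches on genes of glucose use and of adaptation, and low sterol releases SREBP factors, which switch on lipid synthesis.

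The 3 libraries at 24 h carried a trace of globin RNA, which red blood cells make. HBB, which encodes beta globin, had 566, 823 and 1013 counts in the untreated libraries at 24 h and 0 in each of the 3 at 48 h, a level at least 272-fold higher at 24 h when 3 counts per library are taken as the limit that a count of 0 allows. HBA1 and HBA2, which encode alpha globin, followed the same pattern. Together the 3 globin genes had 2059 to 6822 counts in 14 of the 18 libraries at 24 h of the series and 0 to 87 in the other 40 libraries, none of the 36 libraries at 48 h reaching 100. Neutrophil genes were present in the untreated 24 h libraries at 7 to 13 counts for CSF3R, 6 to 14 for FCGR3B and 4 to 8 for S100A9, and at 0 in those at 48 h. Between untreated 24 h and 48 h libraries, the time and this trace cannot be told apart. The library MOO replicate 3 at 24 h had 5 globin counts, so MOO at 48 h was also compared with that library alone.

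**Figure D1:**
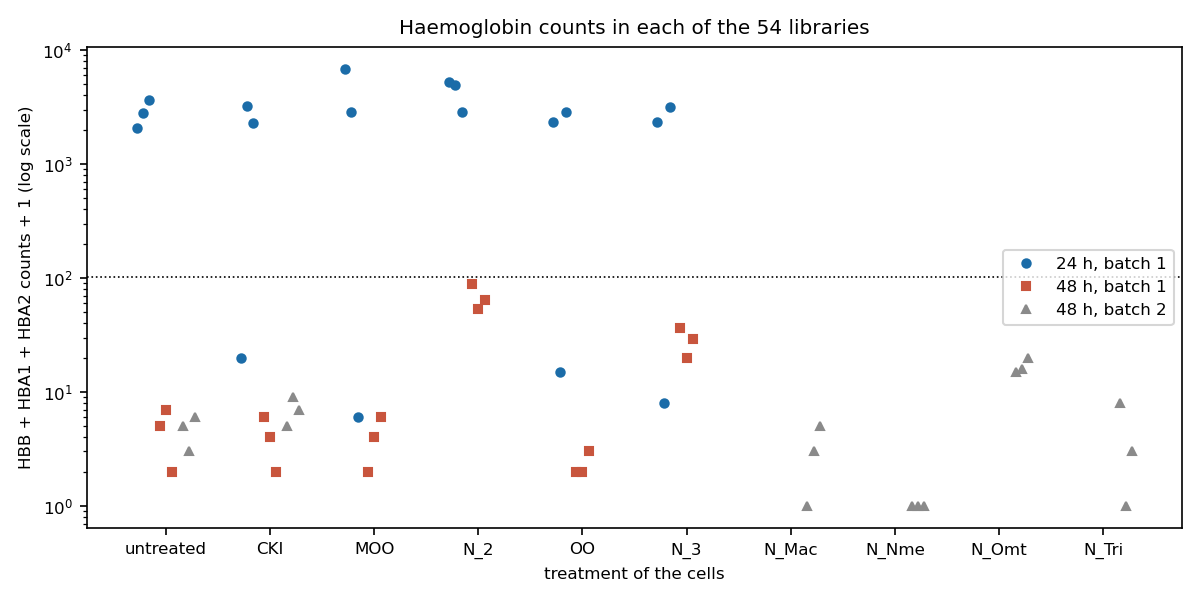
Counts of HBB, HBA1 and HBA2 summed in each of the 54 libraries, with 1 added, on a log axis, by treatment of the cells, time and batch. The 14 points above the dotted line at 100 counts are all libraries at 24 h, among them the 3 untreated ones.

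The markers of the line were where its label puts them, apart from TWIST1. VIM, which encodes the mesenchymal filament vimentin, had 1542, 1522 and 1383 CPM at 24 h and 1123, 1179 and 1179 CPM at 48 h. CD44, a surface receptor for hyaluronan, had 512, 519.9 and 512 CPM at 24 h and 421, 417 and 407 CPM at 48 h, and AXL, CAV1, KRT18, MMP14 and CDH11 were also well above the filter in all 6 libraries, while TWIST1 had no count in any. ESR1 and PGR, the receptors the line lacks, stayed at or below 0.0909 CPM, and GATA3 at 33.0, 32.7 and 34.0 CPM at 24 h and 32.5, 32.5 and 33.2 CPM at 48 h and ERBB2 at 102, 105 and 106 CPM at 24 h and 108, 105 and 112 CPM at 48 h were present. Of 9 fibroblast markers 4 could be tested, of which 2 rose and 1 fell. COL1A2 had 27.6, 30.6 and 31.5 CPM at 24 h and 42.7, 43.9 and 42.0 CPM at 48 h and rose by 0.51, PDGFRB rose by 0.36, COL1A1 fell by 0.31, and LUM was at 0.19 and not called. DCN and POSTN, which also mark fibroblasts, had no count in the 6 libraries. The calls of PDGFRB and COL1A1 were lost without 24 h replicate 2 or 48 h replicate 1, that of COL1A1 also without 24 h replicate 3, and none of the 3 held with all 54 libraries in 1 fit (adjusted p 0.267, 0.291 and 0.291). Markers of HEK-293, another line the study handled, were at 0 or near it, SOX2 being highest at 0.273 to 0.504 CPM. In bulk RNA of this kind, fewer cells of a type and less RNA per cell cannot be told apart.

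Between 24 and 48 h, 3571 of 14187 genes (25.2%) were called, 1778 of them higher at 48 h (12.5%) and 1793 lower (12.6%). Most changes were small. The median absolute log2 fold change of the called genes was 0.33, and 93 of them changed by at least 1 on the log2 scale, 47 higher and 46 lower. For 5698 genes (40.2%) the 3 values at 48 h did not overlap those at 24 h. Genes of ER protein folding, of the hypoxia response, of fatty acid synthesis, of the ATF4 response and of the extracellular matrix were among those that rose, and genes of DNA replication, mitosis, ribosomes and the respiratory chain among those that fell. The number called depended on single libraries. It was 1659 of 14341 genes without 24 h replicate 2 and 2348 of 14406 without 24 h replicate 1. Without 48 h replicate 1, 2 or 3 it was 2784 of 14360, 2428 of 14435 and 2716 of 14354. When all 54 libraries were fitted together and shared 1 estimate of the spread, it was 1136 of 16072. Every list below had fewer called members in that fit. The counts of list members under these settings are to be read beside these totals.

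**Figure D2:**
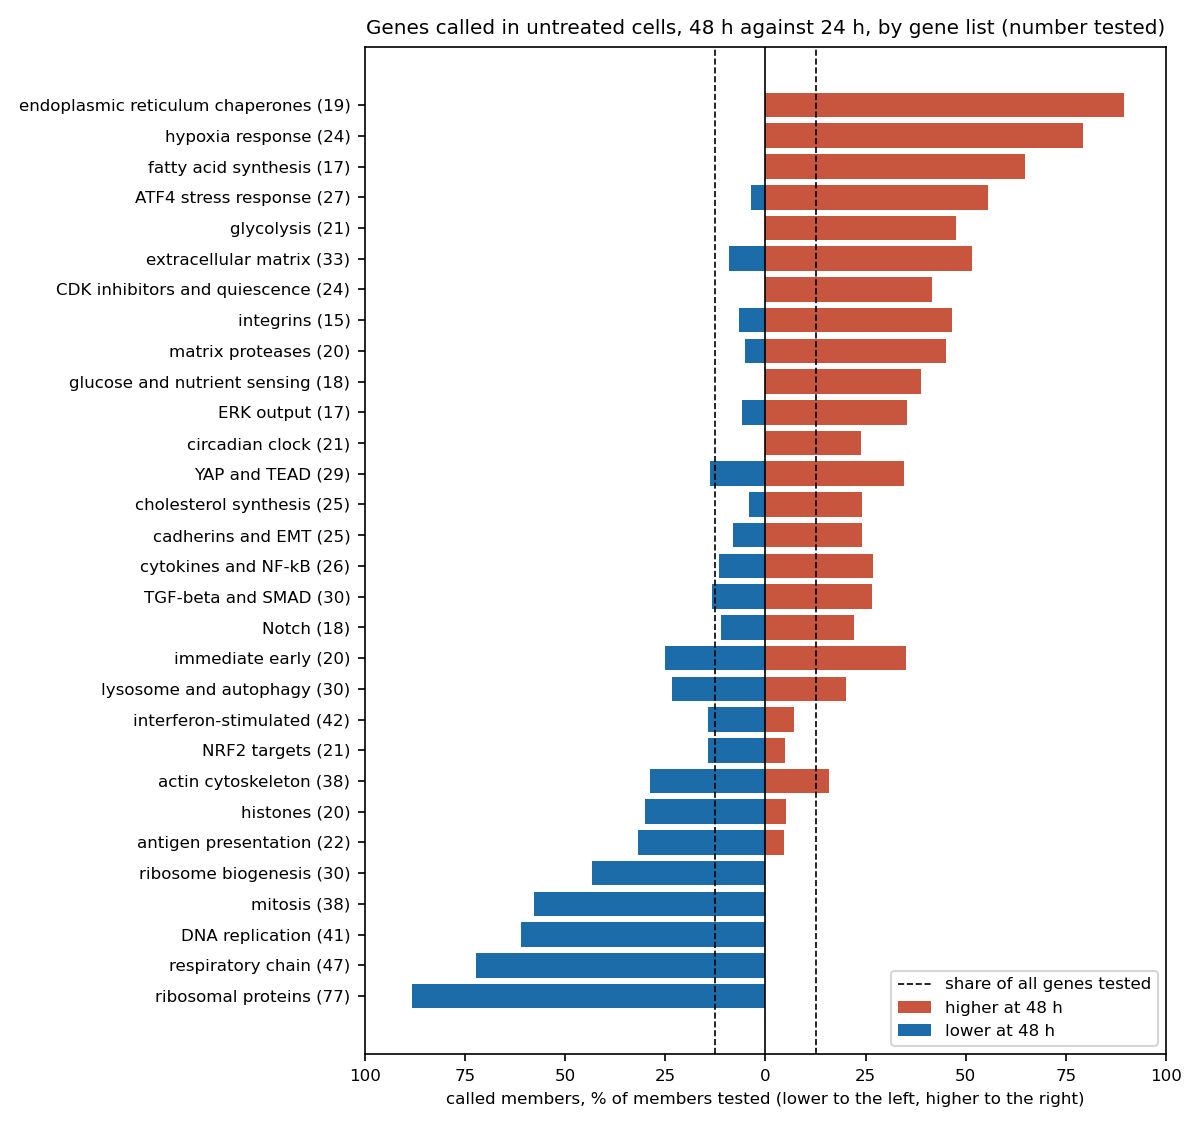
Share of tested members of each of 30 gene lists called higher (red, to the right) or lower (blue, to the left) at 48 h in untreated cells, with the number tested in brackets and dashed lines at the 12.5% and 12.6% of all genes. ER chaperones (89.5% higher) and ribosomal proteins (88.3% lower) lie at the ends.

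Of 19 genes for chaperones and quality control of the ER, 17 rose and none fell, against 12.5% of all genes called higher, and their median log2 fold change was 0.31 against 0.00 over all genes. HSPA5, the main chaperone of the ER and the gauge of its load, had 734, 758 and 727 CPM at 24 h and 1309, 1232 and 1244 CPM at 48 h. Its levels at 48 h were all far above those at 24 h, a log2 fold change of 0.77 ± 0.0564 (SE) with an adjusted p of 1.71e-06. DNAJB9, a cochaperone of HSPA5, had 15.7, 17.7 and 17.7 CPM at 24 h and 30.1, 27.5 and 30.1 CPM at 48 h, again without overlap, a log2 fold change of 0.77 ± 0.0811 (SE) with an adjusted p of 6.93e-05. HYOU1, an exchange factor and chaperone, rose by 0.56, EDEM1, which sorts misfolded glycoproteins for disposal, by 0.52, HSP90B1 by 0.46, HERPUD1 by 0.46 and MANF by 0.42 on the log2 scale. XBP1 itself rose by 0.27. The members not called were DNAJB11 at 0.20 and CRELD2 at 0.06. The number called was 11 without 24 h replicate 2, and with all 54 libraries in 1 fit it was also 11.

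The promoters of these genes are known for a composite site bound by NF-Y and ATF6, the ER stress element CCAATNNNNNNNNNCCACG. In RefSeq promoters of build GRCh38.p14, from 250 bases before to 50 bases after the gene start, it was found on either strand in 6 of the 18 ER genes with a promoter sequence (33.3%), HSPA5, HSP90B1, CALR, CANX, XBP1 and CRELD2, and in 22 of all 27305 promoters (0.0806%). The shorter CCAAT, which it contains, was found in 16 of 18 (88.9%) and in 35.7% of all promoters. The ER stress element was added to the motifs after the calls were known, and a match is a description of the letters only. The 250 bases before the start of HSPA5, chr9:125241344-125241593 (minus strand), and of HSP90B1, chr12:103930160-103930409 (plus strand), are shown because both genes rose and hold the element, which stands in capitals, on either strand.
HSPA5: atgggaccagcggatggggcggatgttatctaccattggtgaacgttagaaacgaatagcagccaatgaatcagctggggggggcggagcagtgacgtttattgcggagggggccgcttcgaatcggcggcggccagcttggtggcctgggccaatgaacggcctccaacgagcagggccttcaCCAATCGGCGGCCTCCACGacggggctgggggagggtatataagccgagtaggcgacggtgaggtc
HSP90B1: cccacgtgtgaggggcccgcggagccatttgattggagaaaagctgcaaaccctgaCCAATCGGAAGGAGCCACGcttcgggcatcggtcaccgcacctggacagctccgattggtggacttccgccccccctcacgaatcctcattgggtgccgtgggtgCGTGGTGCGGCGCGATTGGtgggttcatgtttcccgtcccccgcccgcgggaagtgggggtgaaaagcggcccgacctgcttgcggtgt

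Of 27 genes of the ATF4 response 15 rose (55.6%, against 12.5% of all genes) and 1 fell, with a median of 0.28. NUPR1, a small stress-induced chromatin protein, had 13.2, 13.4 and 13.2 CPM at 24 h and 22.7, 28.7 and 24.2 CPM at 48 h, a log2 fold change of 0.92 ± 0.0960 (SE) with an adjusted p of 6.84e-05. CHAC1, which degrades glutathione, had 14.0, 11.5 and 11.2 CPM at 24 h and 18.3, 19.7 and 21.7 CPM at 48 h and rose by 0.70. TRIB3, a pseudokinase induced by amino acid shortage, had 48.6, 47.5 and 42.6 CPM at 24 h and 66.8, 71.2 and 76.2 CPM at 48 h and rose by 0.62, and CTH, which makes cysteine, by 0.49. All 4 were without overlap between the times. ASNS, asparagine synthetase, with a mean under 5 CPM, rose by 0.85. DDIT3 rose by 0.45, AARS by 0.45 and PHGDH, which opens serine synthesis, by 0.38. ATF5 was the 1 member that fell, by 0.49. The RNA of ATF4, whose protein is governed mainly by translation, had 258, 242 and 233 CPM at 24 h and 232, 247 and 246 CPM at 48 h, overlapping ranges with a log2 fold change of -0.02 ± 0.0602 (SE) and an adjusted p of 0.859. With all 54 libraries in 1 fit 7 members were called, and NUPR1 and CTH were not among them (adjusted p 0.142 and 0.052).

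Of 24 genes of the hypoxia response, 19 rose (79.2%, against 12.5% of all genes) and none fell, with a median of 0.36. NDRG1, a stress-responsive gene of differentiation and metastasis, had 258, 259 and 256 CPM at 24 h and 447, 459 and 453 CPM at 48 h, and the 3 libraries of each time lay within a narrow range, a log2 fold change of 0.81 ± 0.0544 (SE) with an adjusted p of 9.68e-07. EGLN3, an oxygen sensor that marks HIF for destruction, had 16.4, 15.4 and 15.0 CPM at 24 h and 23.4, 26.1 and 23.2 CPM at 48 h, a log2 fold change of 0.63 ± 0.0839 (SE) with an adjusted p of 0.000275. BNIP3, which directs mitochondria to autophagy, had 179, 196 and 173 CPM at 24 h and 257, 266 and 265 CPM at 48 h, a log2 fold change of 0.52 ± 0.0613 (SE) with an adjusted p of 0.000128. MXI1, a partner of MAX that opposes MYC, rose by 0.52, P4HA1, a collagen prolyl hydroxylase, by 0.45, LOX, which crosslinks collagen, by 0.42, VEGFA by 0.32 and PDK1, which holds pyruvate out of mitochondria, by 0.35. HIF1A RNA itself had 178, 208 and 243 CPM at 24 h and 282, 241 and 234 CPM at 48 h, with overlap, a log2 fold change of 0.26 ± 0.0966 (SE) and an adjusted p of 0.061. It was called higher with DESeq2 (adjusted p 0.0362), with no filter (0.000671), with offsets for length and GC content (0.0317) and without 24 h replicate 3 (0.00403). The other members not called were ADM (-0.10), ANGPTL4 (-0.13), STC2 (0.57) and FAM162A (0.17). With all 54 libraries in 1 fit 11 members were called.

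Of 21 genes of glycolysis, which HIF also drives, 10 rose (47.6%, against 12.5% of all genes) and none fell, with a median of 0.19. ALDOC, the aldolase isoform of brain, had 7.13, 7.64 and 7.09 CPM at 24 h and 13.9, 14.3 and 15.1 CPM at 48 h, a log2 fold change of 0.98 ± 0.0965 (SE) with an adjusted p of 3.84e-05. SLC2A3, a glucose transporter, had 49.0, 47.9 and 44.3 CPM at 24 h and 68.3, 72.0 and 68.5 CPM at 48 h and rose by 0.56. HK2, the inducible hexokinase, rose by 0.53, PFKFB4 and PFKFB3, which set the level of the activator of phosphofructokinase, by 0.50 and 0.44, and SLC16A3, the lactate exporter, by 0.30. HK1, PFKP and PGK1 rose by 0.21, 0.21 and 0.26. Among the enzymes not called were GAPDH, with a log2 fold change of -0.16, TPI1 (-0.08), ALDOA (-0.06), ENO1 (0.10), PKM (0.00) and LDHA (0.02). The transporter SLC2A1, at -0.12, was not called either. The number of glycolysis genes called was 6 without 24 h replicate 2. With all 54 libraries in 1 fit it was 4, HK2 not being called (adjusted p 0.0789).

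The core of the hypoxia response element, ACGTG on either strand, was found in 11 of 21 promoters of the hypoxia genes (52.4%), in 8 of 20 of the glycolysis genes (40.0%) and in 21.6% of all 27305 promoters. These letters are also part of the E-box CACGTG. The 250 bases before the start of BNIP3, chr10:131981924-131982173 (minus strand), are shown as a member that rose and holds the core, which is in capitals. The match there begins 134 bases before the start and is itself an E-box, so that it holds the core on both strands.
BNIP3: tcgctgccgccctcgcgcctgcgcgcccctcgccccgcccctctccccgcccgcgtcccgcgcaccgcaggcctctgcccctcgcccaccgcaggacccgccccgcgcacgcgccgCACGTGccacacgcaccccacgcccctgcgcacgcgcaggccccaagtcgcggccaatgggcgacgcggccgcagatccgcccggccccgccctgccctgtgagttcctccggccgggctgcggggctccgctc

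Of 18 genes that respond to glucose and amino acids 7 rose (38.9%, against 12.5% of all genes) and none fell. Their median was 0.25. TXNIP, which restrains glucose uptake, had 143, 148 and 156 CPM at 24 h and 252, 243 and 235 CPM at 48 h, a log2 fold change of 0.70 ± 0.0595 (SE) with an adjusted p of 8.35e-06. PPARGC1A, a coactivator of mitochondrial genes, had 4.81, 5.28 and 5.36 CPM at 24 h and 9.41, 7.19 and 7.85 CPM at 48 h and rose by 0.66. SLC38A2, a neutral amino acid transporter, rose by 0.41, PDK4, with a mean under 5 CPM, by 1.22 and SESN2, a leucine sensor upstream of mTORC1, by 0.34. SLC7A5 (-0.07), SLC3A2 (-0.12) and SLC1A5 (0.02), amino acid transporters too, were not called. SESN2 was not called when all 54 libraries were fitted together (adjusted p 0.0789).

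Fatty acid synthesis rose in 11 of 17 genes (64.7%, against 12.5% of all genes) and fell in none, with a median of 0.28. SCD, which makes monounsaturated fatty acids, had 1189, 1236 and 1268 CPM at 24 h and 2089.9, 1994 and 1979.8 CPM at 48 h, without overlap, a log2 fold change of 0.71 ± 0.0572 (SE) with an adjusted p of 5.04e-06. FASN, the fatty acid synthase, had 943, 923 and 1076 CPM at 24 h and 1471, 1418 and 1501 CPM at 48 h, a log2 fold change of 0.57 ± 0.0659 (SE) with an adjusted p of 0.00011. FADS2, a desaturase of polyunsaturated fatty acids, rose by 0.50 and ACACA, which makes malonyl-CoA, by 0.38, the last not called when all 54 libraries were fitted together (adjusted p 0.0642), where 5 genes of the list were called. SREBF1, which drives this pathway, had 586, 534 and 541 CPM at 24 h and 593, 676 and 753 CPM at 48 h, a log2 fold change of 0.28 ± 0.0780 (SE) and an adjusted p of 0.0179, and its call was lost without 24 h replicate 2 (adjusted p 0.0965), 48 h replicate 2 (0.0596) or 48 h replicate 3 (0.092).

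Cholesterol synthesis moved less, with 6 of 25 genes higher (24.0%), 1 lower (4.00%) and a median of 0.12, beside 12.5% and 12.6% of all genes. SREBF2, the factor that drives this pathway, had 180.3, 180.2 and 196 CPM at 24 h and 275, 258 and 269 CPM at 48 h, a log2 fold change of 0.52 ± 0.0595 (SE) with an adjusted p of 0.00011. LSS, which closes the sterol rings, rose by 0.32 and DHCR7, which makes cholesterol in its last step, by 0.26. PMVK fell by 0.35, a call lost without 24 h replicate 2 (adjusted p 0.0719). HMGCS1, which acts early in the pathway, was not called, at 0.09.

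**Figure D3:**
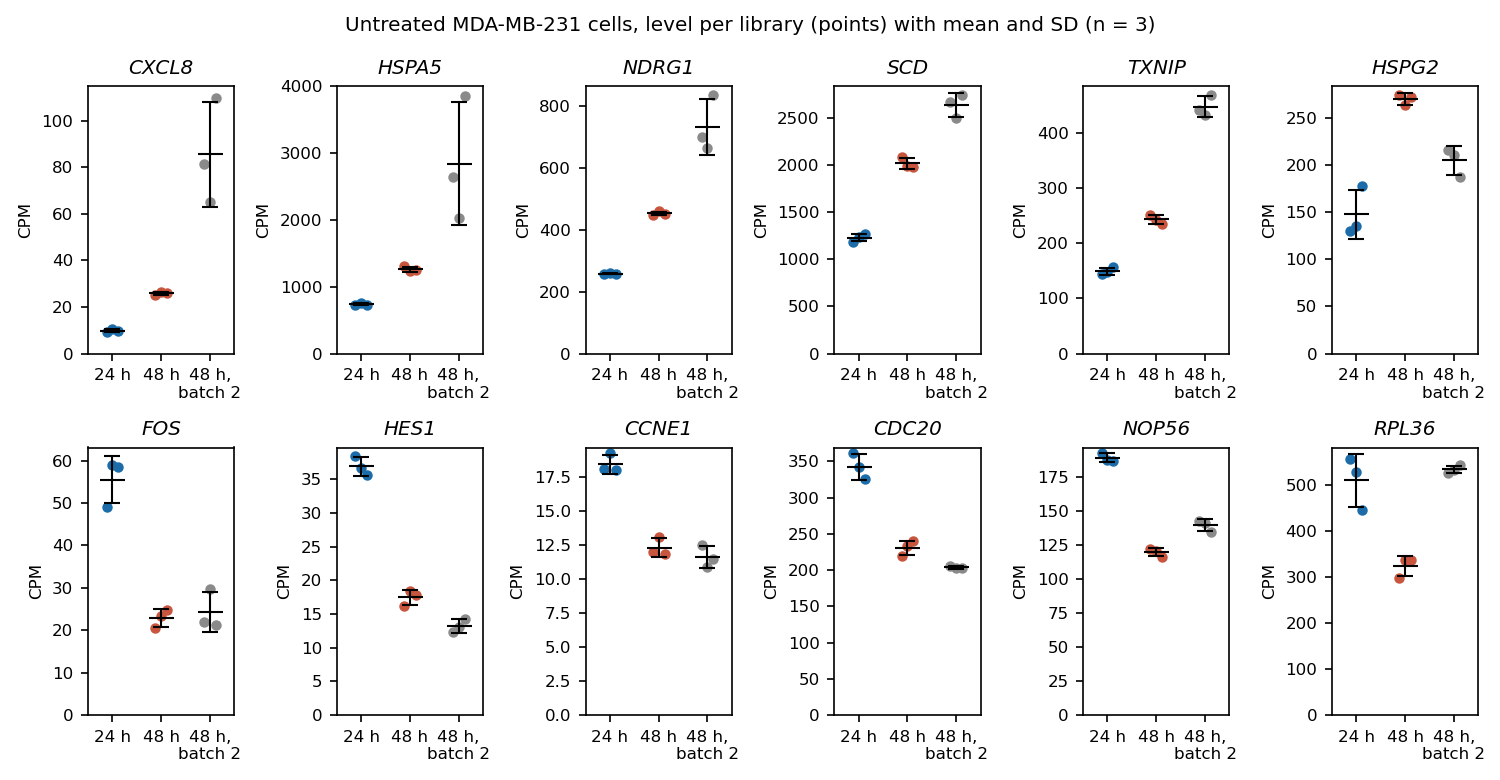
Level in CPM of 12 named genes in each untreated library at 24 h and 48 h of batch 1 and at 48 h of batch 2 (points), with mean and SD (n = 3). In batch 1 the upper 6 genes were higher and the lower 6 lower at 48 h without overlap. The batch 2 libraries have no 24 h counterpart, and RPL36 there stood at the 24 h level of batch 1.

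Genes of growth and division fell. Of 41 DNA replication genes, 25 fell and none rose, against 12.6% of all genes called lower, with a median of -0.24. CCNE1, which carries cells into S phase, had 18.1, 19.3 and 18.0 CPM at 24 h and 12.0, 13.1 and 11.8 CPM at 48 h, without overlap, a log2 fold change of -0.59 ± 0.0864 (SE) with an adjusted p of 0.000518. TYMS, thymidylate synthase, had 128, 121 and 113 CPM at 24 h and 89.6, 89.1 and 85.3 CPM at 48 h, a log2 fold change of -0.46 ± 0.0635 (SE) with an adjusted p of 0.000387. ORC1, part of the origin recognition complex, fell by 0.46, GINS2, part of the replicative helicase, by 0.44, and RRM2, which makes deoxynucleotides, by 0.42. The helicase subunits MCM2 and MCM3 were not called, at -0.06 and -0.03. The number of replication genes called was 13 without 24 h replicate 2 and 16 without 24 h replicate 1 or 48 h replicate 2. With all 54 libraries in 1 fit it was 3, a share near that of all genes there (1136 of 16072). TYMS and GINS2 had adjusted p of 0.216 and 0.213 in that fit.

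Of 38 mitosis genes, 22 fell (57.9%, against 12.6% of all genes) and none rose, with a median of -0.23. CDC20, which activates the anaphase-promoting complex, had 361, 342 and 325 CPM at 24 h and 219.8, 233 and 239.6 CPM at 48 h, a log2 fold change of -0.58 ± 0.0616 (SE) with an adjusted p of 7.67e-05. CCNB1, the mitotic cyclin, had 327, 313 and 296 CPM at 24 h and 218, 227 and 222 CPM at 48 h, a log2 fold change of -0.49 ± 0.0588 (SE) with an adjusted p of 0.000133. CENPA, the centromeric histone, had 36.5, 37.6 and 36.8 CPM at 24 h and 25.0, 24.9 and 25.1 CPM at 48 h and fell by 0.57, PTTG1, the securin, by 0.54 and PLK1 by 0.49. These falls were without overlap between the times for CDC20, CCNB1, CENPA and PTTG1. MKI67, the Ki-67 antigen, was at 0.00 and TOP2A at -0.01, neither called. The number was 14 without 24 h replicate 2 and 6 with all 54 libraries in 1 fit.

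The cell cycle homology region TTTGAA, through which the MuvB complexes act on late cell cycle genes, was found on either strand in 22 of 32 promoters of mitosis genes (68.8%), in 1 of 36 of replication genes (2.78%) and in 15.4% of all promoters. CCAAT was found in 24 of 32 mitosis promoters (75.0%) and 20 of 36 replication promoters (55.6%). The 250 bases before the start of CDC20, chr1:43358731-43358980 (plus strand), hold TTTGAA on each strand, in capitals.
CDC20: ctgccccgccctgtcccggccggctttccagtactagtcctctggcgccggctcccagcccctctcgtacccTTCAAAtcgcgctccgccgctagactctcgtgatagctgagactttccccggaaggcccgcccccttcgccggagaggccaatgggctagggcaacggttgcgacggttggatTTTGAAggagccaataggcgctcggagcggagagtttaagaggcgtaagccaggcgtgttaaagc

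Among inhibitors of the cell cycle and genes of quiescence, 10 of 24 rose (41.7%, against 12.5% of all genes) and none fell. Their median was 0.17. FOXO3, a factor held out of the nucleus by growth signals, had 31.2, 33.6 and 37.0 CPM at 24 h and 54.7, 44.7 and 47.1 CPM at 48 h, a log2 fold change of 0.52 ± 0.0871 (SE) with an adjusted p of 0.00116. HBP1, a repressor of cell cycle genes, had 17.6, 21.4 and 20.9 CPM at 24 h and 30.2, 26.8 and 26.0 CPM at 48 h and rose by 0.46. CCNG2, a cyclin of cells at rest, rose by 0.42, CDKN1B by 0.27 and RBL2, of the retinoblastoma family, by 0.36. CDKN1A, the best known target of p53, was at -0.06 and not called. Of 20 histone genes 6 fell (30.0%) and 1 rose (5.00%), with a median of -0.43, where 12.6% of all genes fell and 12.5% rose. Reads of most of these mRNAs escape an oligo(dT) selection because they lack a poly(A) tail. HIST1H1C, a linker histone, had 46.0, 44.0 and 40.6 CPM at 24 h and 23.5, 28.6 and 26.1 CPM at 48 h, a log2 fold change of -0.75 ± 0.0834 (SE) with an adjusted p of 0.000102, and HIST1H2BK fell by 0.46. H1F0, the linker histone of resting cells, rose from 389, 381 and 376 CPM to 443, 476 and 451 CPM, a call lost without 48 h replicate 2 (adjusted p 0.0502). The number of histone genes called was 3 without 24 h replicate 2 and 4 without 24 h replicate 1 or 48 h replicate 2, and HIST1H1C and HIST1H2BK were not called with all 54 libraries in 1 fit (adjusted p 0.0846 and 0.061).

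Ribosomal protein genes fell together. Of 77 tested, 68 fell (88.3%, against 12.6% of all genes) and none rose, with a median of -0.37. All 77 had a negative log2 fold change. RPL36 had 557, 529.6 and 446 CPM at 24 h and 298, 337 and 336 CPM at 48 h, a log2 fold change of -0.66 ± 0.0802 (SE) with an adjusted p of 0.00015. RPS12 had 495, 473 and 416 CPM at 24 h and 290.2, 298 and 313 CPM at 48 h, a log2 fold change of -0.62 ± 0.0689 (SE) with an adjusted p of 9.37e-05. At 24 h replicate 3 had the lowest value of its group for both genes, and it still lay above the 3 libraries at 48 h. RPS28 and RPS15 fell by 0.58 and 0.57. The 9 members not called, among them RPL3 (-0.13) and RPS27 (-0.26), were negative as well. In batch 2 the untreated libraries at 48 h had 527, 534 and 543 CPM of RPL36 and 520.3, 526 and 511 CPM of RPS12. Ribosomal protein genes have many processed pseudogenes, so reads may be divided among copies. The number called was 44 without 24 h replicate 2 and 30 with all 54 libraries in 1 fit.

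Ribosome biogenesis, the making of ribosomal RNA and its assembly, fell in 13 of 30 genes (43.3%, against 12.6% of all genes) and rose in none. The median was -0.18. NOP56, a core protein of box C/D small nucleolar ribonucleoproteins, had 193, 188 and 187 CPM at 24 h and 122, 121 and 117 CPM at 48 h, a log2 fold change of -0.67 ± 0.0564 (SE) with an adjusted p of 8.35e-06. NHP2, a core protein of box H/ACA particles, had 168, 161 and 145 CPM at 24 h and 101, 119 and 119 CPM at 48 h and fell by 0.49. MRTO4 fell by 0.44 and RRS1 by 0.41, both assembly factors of the large subunit. MYC, which drives these genes, had 189, 187 and 191 CPM at 24 h and 184, 189 and 210.1 CPM at 48 h, overlapping ranges with a log2 fold change of 0.04 ± 0.0621 (SE) and an adjusted p of 0.684. The E-box CACGTG, to which MYC binds, was found in 8 of 24 promoters of the list (33.3%) and in 7.43% of all promoters. The number called was 8 without 24 h replicate 2 and 5 with all 54 libraries in 1 fit.

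The nuclear genes of the respiratory chain and ATP synthase fell in 34 of 47 cases (72.3%, against 12.6% of all genes) and rose in none. Their median was -0.27, all 47 being negative. COX8A, a small subunit of cytochrome c oxidase, had 342, 312 and 273 CPM at 24 h and 199, 218 and 216 CPM at 48 h, a log2 fold change of -0.56 ± 0.0763 (SE) with an adjusted p of 0.000364. NDUFB10, an accessory subunit of complex I, had 71.7, 68.3 and 62.9 CPM at 24 h and 47.6, 48.9 and 47.0 CPM at 48 h, a log2 fold change of -0.50 ± 0.0678 (SE) with an adjusted p of 0.000317. ATP5MC1, a subunit of the membrane ring of ATP synthase, fell by 0.55 and COX5A by 0.50. The number called was 19 without 24 h replicate 2, 22 without 24 h replicate 1 and 11 with all 54 libraries in 1 fit.

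The change between the times also moved with transcript length, and the median length was 671 bases over the ribosomal proteins and 662 bases over the respiratory chain. Over the 13822 genes with a length, taken as the median over the transcripts of GENCODE 29, the longest eighth (2851 bases and more) had a median log2 fold change of 0.13, with 22.4% called higher and 3.41% lower. The second bin (624.5 to 737.5 bases), in which both lists have their median, had a median of -0.01, with 11.9% higher and 16.4% lower. In the fourth bin (851 to 1040 bases) the median was -0.06, with 10.1% higher and 19.8% lower, and in the shortest eighth (up to 624.5 bases) it was -0.01, with 13.0% higher and 15.2% lower. With offsets for length and GC content in the fit, an alternative added after the calls were known, 4301 genes were called. Of the lists, 68 ribosomal protein genes, 34 respiratory chain genes, 16 ER chaperones, 20 hypoxia genes and 21 matrix genes were called there. The part of length in these results was not tested beyond that fit.

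**Figure D4:**
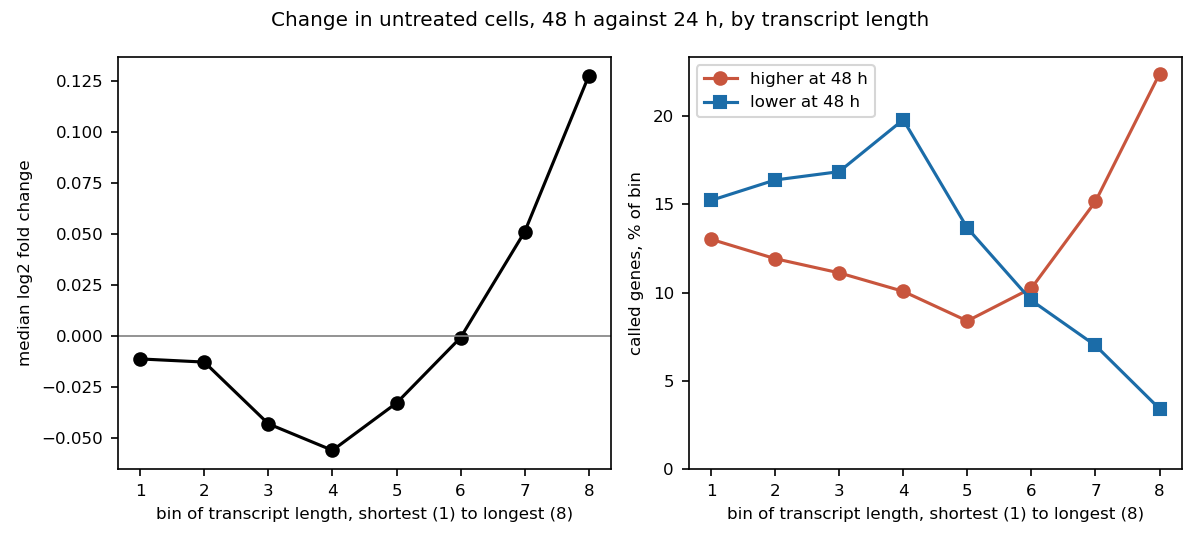
Left, median log2 fold change at 48 h against 24 h in untreated cells, and right, share of genes called higher or lower, in 8 bins of transcript length with 1727 or 1728 genes each. The median rises from -0.06 in the fourth bin to 0.13 in the longest, and the share called higher from 8.39% in the fifth bin to 22.4%.

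The matrix around the cells was another group that rose. Of 33 matrix genes, 17 rose (51.5%, against 12.5% of all genes) and 3 fell, with a median of 0.26. HSPG2, the basement membrane proteoglycan perlecan, had 130.1, 135 and 177 CPM at 24 h and 275, 263 and 272 CPM at 48 h, a log2 fold change of 0.87 ± 0.0929 (SE) with an adjusted p of 7.67e-05. COL12A1, a collagen that lies along other fibrils, had 132, 143 and 164 CPM at 24 h and 243, 223 and 208 CPM at 48 h, a log2 fold change of 0.62 ± 0.0796 (SE) with an adjusted p of 0.000233. COL8A1, a short-chain collagen of vessel walls, had 54.9, 59.2 and 64.4 CPM at 24 h and 93.2, 83.9 and 89.3 CPM at 48 h and rose by 0.57, PLOD2, which prepares collagen for crosslinks, by 0.54 and FN1, fibronectin, by 0.40. The laminin chains LAMA5, LAMA3 and LAMB2 rose by 0.43, 0.32 and 0.30. THBS1 (-0.36), COL7A1 (-0.36) and TGFBI (-0.22) were the 3 that fell. With all 54 libraries in 1 fit 6 matrix genes were called. The fibroblast markers COL1A2 and PDGFRB moved with this list, at 0.51 and 0.36, COL1A1 moved against it, at -0.31, and DCN and POSTN had no count, and the part of such cells in the result was not tested.

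Integrins, the receptors for this matrix, rose in 7 of 15 cases (46.7%, against 12.5% of all genes) and fell in 1. Their median was 0.22. ITGB3 had 9.45, 10.5 and 12.1 CPM at 24 h and 17.1, 15.2 and 14.6 CPM at 48 h and rose by 0.54. ITGA2, of the collagen receptor, had 88.3, 96.5 and 108 CPM at 24 h and 153, 126 and 121 CPM at 48 h and rose by 0.45, and ITGB4, of the laminin receptor of hemidesmosomes, by 0.32. ITGAE was the member that fell (-0.26). Only 4 integrins were called without 24 h replicate 2, and ITGB3 and ITGB4 were not called with all 54 libraries in 1 fit (adjusted p 0.058 and 0.0868). Of 20 proteases and their inhibitors, 9 rose (45.0%, against 12.5% of all genes) and 1 fell, with a median of 0.24. PLAT, the tissue plasminogen activator, had 378, 385 and 383 CPM at 24 h and 529, 558 and 564 CPM at 48 h, a log2 fold change of 0.52 ± 0.0559 (SE) with an adjusted p of 7.67e-05. CEMIP, which binds and degrades hyaluronan, had 263, 282 and 321 CPM at 24 h and 423, 384 and 398 CPM at 48 h, a log2 fold change of 0.47 ± 0.0726 (SE) with an adjusted p of 0.000725, and ADAM8, a membrane sheddase, rose by 0.44. PLAU was the member that fell (-0.18). PLAT and CEMIP were not called with all 54 libraries in 1 fit (adjusted p 0.125 and 0.208). The AP-1 site TGACTCA was found in 2 of 16 promoters of this list (12.5%) and in 4.92% of all.

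Cytokines and genes of the NF-kB pathway went both ways, with 7 of 26 higher (26.9%), 3 lower (11.5%) and a median of 0.11. Over all genes 12.5% were called higher and 12.6% lower. CXCL8 (interleukin-8), which draws neutrophils, had the largest rise among the genes named by rule, from 9.12, 10.4 and 9.81 CPM at 24 h to 25.1, 26.6 and 25.8 CPM at 48 h. The groups lay far apart, a log2 fold change of 1.39 ± 0.0855 (SE) with an adjusted p of 3.55e-07. In batch 2, untreated cells at 48 h had 81.6, 65.3 and 110.0 CPM. ICAM1, an adhesion molecule for leukocytes, had 80.0, 83.0 and 78.7 CPM at 24 h and 124, 136 and 136 CPM at 48 h, a log2 fold change of 0.70 ± 0.0620 (SE) with an adjusted p of 1.14e-05. CSF1, the macrophage growth factor, had 484, 485 and 496 CPM at 24 h and 731, 793 and 821 CPM at 48 h, a log2 fold change of 0.67 ± 0.0601 (SE) with an adjusted p of 1.30e-05. IL1B, TNFAIP2, TNFAIP3 and BIRC3 rose by 0.89, 0.47, 0.38 and 0.31. CCL2 (-1.06), IL6 (-0.38) and CSF2 (-0.53) fell, the call of CSF2 being lost without 24 h replicate 2 (adjusted p 0.146) or 48 h replicate 1 (0.0853). IL1B and CCL2 each had a mean under 5 CPM. In all, 5 members were called without 24 h replicate 2.

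Interferon-stimulated genes as a group did not move one way, 3 of 42 being higher, 6 lower and the median 0.00, shares of 7.14% and 14.3% beside the 12.5% and 12.6% of all genes. ISG15, a ubiquitin-like modifier, had 149, 138 and 111 CPM at 24 h and 85.5, 102 and 96.4 CPM at 48 h, a log2 fold change of -0.49 ± 0.0953 (SE) with an adjusted p of 0.00261. USP18, which removes ISG15 and had a mean under 5 CPM, fell by 0.54. The number called was 1 without 24 h replicate 2, 3 without 24 h replicate 1 and 4 without 48 h replicate 2 or 3. Of 22 genes of antigen presentation 7 fell and 1 rose (TAP1, 0.18). PSMB9, a subunit of the immunoproteasome, had 77.1, 71.4 and 63.5 CPM at 24 h and 48.7, 58.0 and 52.4 CPM at 48 h, a log2 fold change of -0.42 ± 0.0831 (SE) with an adjusted p of 0.00298, and PSME2, of its activator, fell by 0.36 (adjusted p 0.0938 with all 54 libraries in 1 fit). Without 24 h replicate 2, 3 of these were called.

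Among immediate early genes, 7 of 20 rose (35.0%) and 5 fell (25.0%), with a median of 0.02, beside 12.5% and 12.6% of all genes. The members of AP-1 differed in direction. FOS had 49.1, 58.9 and 58.5 CPM at 24 h and 20.5, 23.3 and 24.6 CPM at 48 h, with every value at 48 h well below those at 24 h, a log2 fold change of -1.29 ± 0.0899 (SE) with an adjusted p of 1.34e-06. FOSB, with a mean under 5 CPM, fell by 0.84, FOSL1 by 0.19, DUSP1, which dephosphorylates MAP kinases, by 0.43 and EGR1 by 0.29. JUND had 499, 503 and 497 CPM at 24 h and 567, 738 and 790.5 CPM at 48 h, a log2 fold change of 0.48 ± 0.0930 (SE) with an adjusted p of 0.00261, and JUN, JUNB and FOSL2 rose by 0.28, 0.34 and 0.39. KLF9, a factor induced by glucocorticoids, had 6.52, 8.45 and 7.95 CPM at 24 h and 12.1, 12.8 and 11.3 CPM at 48 h and rose by 0.64. FOS and JUND were not called with all 54 libraries in 1 fit (adjusted p 0.0915 and 0.176). Genes that report ERK activity rose in 6 of 17 cases and fell in 1 (FOSL1), with a median of 0.15. DUSP4, a nuclear phosphatase of ERK, had 379, 379 and 391 CPM at 24 h and 520.1, 513 and 517 CPM at 48 h, a log2 fold change of 0.43 ± 0.0541 (SE) with an adjusted p of 0.00021, and SPRY4, an inhibitor of the pathway, rose by 0.38, a call lost with all 54 libraries in 1 fit (adjusted p 0.163). TGACTCA was found in 1 of 18 promoters of the immediate early list (5.56%) and 1 of 11 of the ERK list (9.09%).

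HES1 and ID3, repressors of differentiation that answer to Notch and to BMP signals, were among the largest falls. HES1 had 38.4, 36.6 and 35.7 CPM at 24 h and 16.2, 18.5 and 17.7 CPM at 48 h, a log2 fold change of -1.08 ± 0.0778 (SE) with an adjusted p of 1.52e-06. ID3 had 22.9, 23.1 and 23.5 CPM at 24 h and 10.2, 10.9 and 9.94 CPM at 48 h, a log2 fold change of -1.17 ± 0.0830 (SE) with an adjusted p of 1.44e-06. For both, no value at 48 h reached the lowest at 24 h, which the rule that picked the largest falls requires. HES1 was not called with all 54 libraries in 1 fit (adjusted p 0.0576). Of 18 Notch genes 4 rose (22.2%), the receptors NOTCH1 (0.39) and NOTCH2 (0.31), the ligand JAG2 (0.36) and the coactivator MAML2 (0.36). HES1 and RFNG (-0.27) fell (11.1%), where 12.5% of all genes were called higher and 12.6% lower. With all 54 libraries in 1 fit NOTCH1, JAG2, MAML2 and INHBB were not called (adjusted p 0.0905, 0.197, 0.207 and 0.0613). Of 30 genes of TGF-beta and BMP signaling, 8 rose (26.7%) and 4 fell (13.3%), with a median of 0.05. In both lists the share that fell lay near that of all genes. INHBB, an activin subunit, had 13.0, 12.8 and 11.7 CPM at 24 h and 17.4, 19.4 and 19.1 CPM at 48 h and rose by 0.58, and the latent TGF-beta binding proteins LTBP2 and LTBP3 by 0.52 and 0.50. ID1, PMEPA1 and TGFBI fell with ID3, by 0.28, 0.36 and 0.22. Without 24 h replicate 2, 6 of these were called.

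Targets and partners of YAP and TEAD rose in 10 of 29 cases (34.5%) and fell in 4 (13.8%), with a median of 0.08. Over all genes 12.5% were called higher and 12.6% lower. CTGF, the matricellular target most used to read YAP, had 314, 314 and 306 CPM at 24 h and 239, 213 and 229.5 CPM at 48 h, a log2 fold change of -0.46 ± 0.0596 (SE) with an adjusted p of 0.000233. CYR61 fell by 0.27 and TEAD4 by 0.36. TGFB2, a ligand, had 78.4, 87.5 and 105 CPM at 24 h and 138, 126 and 123 CPM at 48 h, a log2 fold change of 0.51 ± 0.0891 (SE) with an adjusted p of 0.00146, and CRIM1 rose by 0.42. YAP1 had 189, 195 and 220.1 CPM at 24 h and 250.2, 228 and 233 CPM at 48 h and a log2 fold change of 0.23 ± 0.0678 (SE), a call lost without 24 h replicate 1 (adjusted p 0.0863), 24 h replicate 2 (0.117) or 48 h replicate 1 (0.0603). The number called was 7 without 24 h replicate 2 and 8 without 24 h replicate 1. Of 38 genes of the actin cytoskeleton 6 rose (15.8%) and 11 fell (28.9%), with a median of 0.04. TPM2, a tropomyosin that coats actin filaments, had 37.9, 31.2 and 36.9 CPM at 24 h and 22.1, 24.6 and 25.1 CPM at 48 h and fell by 0.56. TPM1, its relative, had 100.1, 98.1 and 94.6 CPM at 24 h and 71.9, 75.5 and 73.6 CPM at 48 h and fell by 0.41. TAGLN fell by 0.54, ACTB by 0.33, PFN1 by 0.38 and CFL1 by 0.38, whereas TLN1 and ROCK1 rose by 0.33 and 0.33. SRF, which drives many of them, had 191, 178 and 184 CPM at 24 h and 184, 196 and 204 CPM at 48 h with overlap, a log2 fold change of 0.08 ± 0.0605 (SE) and an adjusted p of 0.387. Without 24 h replicate 2, 11 actin genes were called, and with all 54 libraries in 1 fit TPM2, CRIM1 and TEAD4 were not (adjusted p 0.155, 0.052 and 0.0546).

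Lists of lysosome, cadherin, clock and NRF2 genes are given beside the 12.5% of all genes called higher and 12.6% lower. Of 30 lysosome and autophagy genes 6 rose (20.0%), TFEB (0.45) and GABARAPL1 (0.40) most, and 7 fell (23.3%), GLA (-0.38) most. Of 25 genes of cadherins and epithelial-mesenchymal transition 6 rose (24.0%) and 2 fell (8.00%), with VIM at -0.36 ± 0.0609 (SE), adjusted p 0.00132, and ZEB1, a repressor of E-cadherin, at 0.40 (adjusted p 0.0689 with all 54 libraries in 1 fit). Of 21 clock genes 5 rose (23.8%) and none fell, ARNTL (0.45) and NR1D1 (0.40) having the largest changes, calls lost without 48 h replicate 1 (adjusted p 0.0566) and without 24 h replicate 2 (0.055). Of 21 NRF2 targets, TXNRD1 rose (0.39) and FTL, FTH1 and TALDO1 fell (-0.27, -0.24 and -0.21), all 3 calls being lost without 24 h replicate 1 or without 24 h replicate 2, while NFE2L2, which encodes NRF2, was at -0.07 with an adjusted p of 0.504. Single libraries decided several of these counts. The lysosome genes called numbered 7 without 24 h replicate 2 or 48 h replicate 2 and 8 without 24 h replicate 1, and the cadherin genes 5 without 48 h replicate 2 or 48 h replicate 3. The clock genes numbered 1 without 24 h replicate 2, 2 without 48 h replicate 1, 3 without 24 h replicate 1, 48 h replicate 2 or 48 h replicate 3, and the NRF2 targets 1 without 24 h replicate 1 or 2 and 2 without 48 h replicate 3.

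Some of the largest changes lay outside these lists. AGR2, a disulfide isomerase of the ER that mucin secretion needs, had 7.63, 8.87 and 7.54 CPM at 24 h and 20.8, 22.4 and 19.3 CPM at 48 h, a log2 fold change of 1.37 ± 0.100 (SE) with an adjusted p of 1.71e-06. FCGBP, a mucin-like secreted protein, had 10.6, 11.5 and 15.9 CPM at 24 h and 26.2, 25.4 and 27.7 CPM at 48 h, a log2 fold change of 1.05 ± 0.120 (SE) with an adjusted p of 0.00011. RASD1, a small GTPase induced by glucocorticoids, had 9.28, 9.21 and 12.3 CPM at 24 h and 19.2, 20.5 and 23.8 CPM at 48 h, a log2 fold change of 1.04 ± 0.119 (SE) with an adjusted p of 0.00011. Each had higher values in every library at 48 h, which the rule that picked the largest rises requires. HID1, which acts at the Golgi in making secretory granules, rose by 0.98 and FHL1, a LIM protein, by 0.83. KIAA0754 (0.96) and MIR6087 (0.87) rose too, both uncertain, the first because it overlaps MACF1 and the second because it is much shorter than the fragments of such a library, and neither was called with all 54 libraries in 1 fit (adjusted p 0.132 and 0.134). Among called genes with at least 10 CPM and no overlap, and apart from the globin genes and those given above, LY6G5B (-0.91), HNRNPA1P33 (-0.89), POP5 (-0.77), SMIM4 (-0.75) and C4orf48 (-0.71) fell most. POP5, a protein subunit of RNase P and RNase MRP, had 26.7, 28.1 and 25.5 CPM at 24 h and 14.2, 17.5 and 15.5 CPM at 48 h, a log2 fold change of -0.77 ± 0.0901 (SE) with an adjusted p of 0.000123. HNRNPA1P33 is a pseudogene, so its reads are uncertain, and it was not called with all 54 libraries in 1 fit (adjusted p 0.0501).

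Cells given MOO, N_2 or CKI changed between 24 and 48 h as well, in other libraries. In MOO cells 7389 of 14320 genes (51.6%) were called between the times, in N_2 cells 7155 of 14700 (48.7%), and in CKI cells 459 of 14416 (3.18%, with 1.84% higher and 1.35% lower), or 4904 of 14578 (33.6%) without CKI replicate 1 at 24 h. That library was left out because an earlier analysis of these data found it to stand apart, and it held 19 globin counts against 2285 and 3234 in the other CKI libraries at 24 h. Of the 1769 genes higher at 48 h in untreated cells that could be tested in MOO cells, 1041 (58.8%) were called higher there and 177 (10.0%) lower, where 25.4% of all genes tested were higher. Of 1781 genes lower in untreated cells, 1200 (67.4%) were lower in MOO cells and 41 (2.30%) higher, where 26.2% of all were lower. When MOO at 48 h was set against MOO replicate 3 at 24 h alone, the library without the globin trace, 43.1% of the higher genes were called higher against 15.5% of all genes, and 51.2% of the lower genes lower against 18.4%. The lone library was taken to vary like the 3 at 48 h. The median log2 fold change there was 0.22 over the genes higher in untreated cells and -0.26 over those lower, beside 0.30 and -0.33 with all 3 MOO libraries. In N_2 cells 29.4% of the higher genes were called higher and 19.9% lower, where 24.2% of all were higher, and 45.0% of the lower genes were called lower and 15.2% higher, where 24.4% of all were lower. In CKI cells without replicate 1 at 24 h, 44.4% of the higher genes were called higher against 16.1% of all genes, and 51.2% of the lower genes lower against 17.6%, shares that were 6.44% and 4.68% with that library. The 24 h libraries of the 3 treatments carried the globin trace too, apart from MOO replicate 3 and CKI replicate 1.

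By list, most ribosomal protein and respiratory chain genes fell in MOO, N_2 and, without replicate 1 at 24 h, CKI cells. Over all genes tested, 25.4% were called higher and 26.2% lower in MOO cells, and 24.2% and 24.4% in N_2 cells. In CKI cells these shares were 16.1% and 17.6% without replicate 1, and 1.84% and 1.35% with it. Ribosomal proteins were called lower in 68 of 77 cases in MOO cells, 41 against MOO replicate 3 alone, 76 in N_2 cells and 73 in CKI cells without replicate 1 at 24 h (18 with it), and none was called higher. Respiratory chain genes were lower in 46 of 47 cases in MOO, 39 in N_2 with 3 higher, and 41 in CKI cells without replicate 1 (2 with it). DNA replication genes were lower in 41 of 41 cases in MOO cells, with a median of -1.04, and in 25 in N_2 cells with 1 higher. CKI cells without replicate 1 had 5 lower and 7 higher, near the shares of all genes, with a median of -0.01 (1 and none with it, the median then being 0.14). ER chaperones rose in 19 of 19 cases in MOO cells, with a median of 1.19, and in 19 of 19 against MOO replicate 3 alone, but 9 fell and 4 rose in N_2 cells, and 6 fell and 1 rose in CKI cells without replicate 1 (2 and none with it). Of the 24 hypoxia genes, 17 rose and 1 fell in CKI cells without replicate 1 (7 and none with it), and 5 rose and 16 fell in MOO cells. In N_2 cells 3 of them rose and 7 fell, with a median of 0.11, where 24.4% of all genes were lower. Of the 21 glycolysis genes, 1 rose and 18 fell in MOO cells, and 3 rose and 14 fell in N_2 cells.

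**Figure D5:**
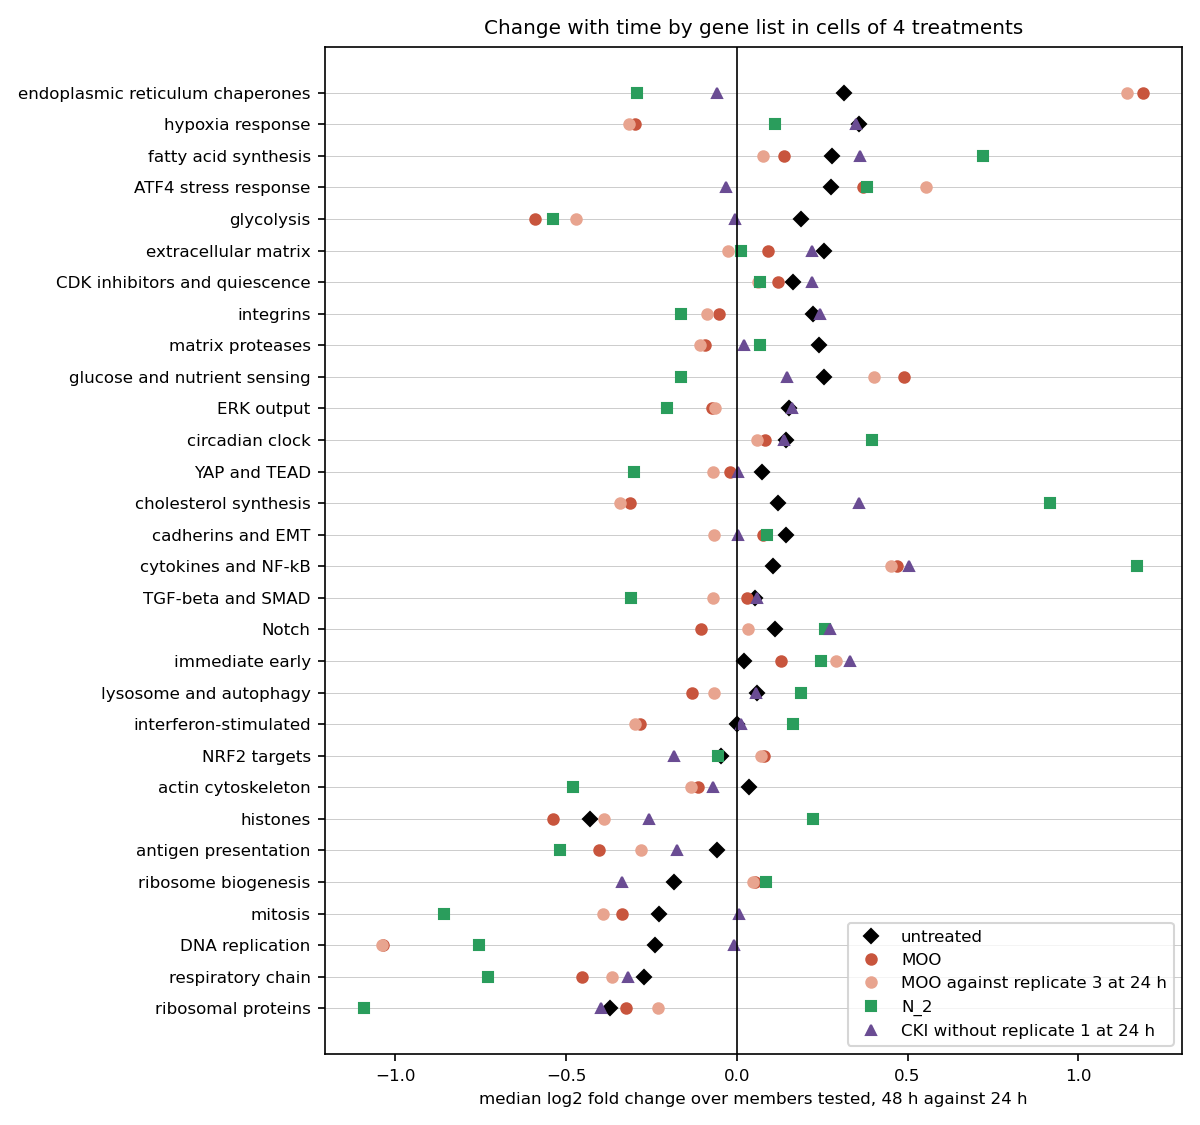
Median log2 fold change at 48 h against 24 h over the tested members of each of 30 gene lists in untreated cells (black), MOO cells against all 3 (dark red) or only replicate 3 (light red) at 24 h, N_2 cells (green) and CKI cells without replicate 1 at 24 h (violet). Ribosomal proteins and respiratory chain genes lie below 0 in all 5, and ER chaperones run from -0.29 in N_2 to 1.19 in MOO cells.

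The change with time was tested for a difference between untreated and treated cells by the interaction term over 12 libraries each. It differed for 3100 of 14728 genes with MOO (21.0%, 8.70% higher and 12.3% lower than in untreated cells), 6258 of 15257 with N_2 (41.0%, 18.1% higher and 23.0% lower) and 232 of 14834 with CKI (1.56%, 0.836% higher and 0.728% lower), or 1418 with CKI when CKI replicate 1 at 24 h was left out. The values of single genes in CKI cells that follow include CKI replicate 1 at 24 h, the library left out above. HSPA5 rose by 0.77 in untreated cells and by 2.30 in MOO cells, a difference of 1.53 ± 0.0719 (SE) with an adjusted p of 3.22e-09, whereas it changed by -0.52 in N_2 cells and -0.45 in CKI cells, differences of -1.32 ± 0.123 (SE) and -1.21 ± 0.0879 (SE) with adjusted p of 6.59e-06 and 6.49e-05. NDRG1 rose in untreated cells and changed by -0.32 with MOO and -0.93 with N_2, differences of -1.13 ± 0.0704 (SE) and -1.78 ± 0.105 (SE) with adjusted p of 5.38e-08 and 2.79e-07. In CKI cells NDRG1 rose by 0.35 (adjusted p 0.0471), a difference of -0.45 ± 0.0770 (SE) with an adjusted p of 0.0173. CXCL8 changed by 1.20 in MOO, 1.76 in N_2 and 1.46 in CKI cells, and its differences from untreated cells, -0.19 ± 0.0966 (SE), 0.33 ± 0.271 (SE) and 0.07 ± 0.223 (SE), had adjusted p of 0.169, 0.349 and 0.899. HES1 changed by -1.04 in MOO cells, with a difference of 0.04 ± 0.113 (SE) and an adjusted p of 0.827, and by 0.23 in N_2 cells, with a difference of 1.27 ± 0.231 (SE) and an adjusted p of 0.000761. Its change in CKI cells was -0.39, with a difference of 0.70 ± 0.479 (SE) and an adjusted p of 0.471. The split of the differences into higher and lower depended on scaling. With MOO 1282 of the 3100 were higher than in untreated cells, against 1822 of 3104 when libraries were scaled by their totals alone, and with N_2 2756 of 6258 against 5397 of 7000, the median difference over all genes then moving from -0.02 to 0.34.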

How the data were processed

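RNA of untreated MDA-MB-231 cells was sequenced as strand-specific, paired-end, oligo(dT)-selected libraries. The authors deposited 1 table of raw read counts per gene (54 libraries, 27978 genes, unit counts, not normalized). The submitters' processing notes name FastQC 0.11.4, Trim Galore 0.3.7, STAR 2.5.3a, Subread 1.5.2 with featureCounts, edgeR 3.22.3 and hg19, and the setting for strand in the counting is not given in the sources used here. Libraries were grouped by their labels. From the counts, genes were kept with filterByExpr, libraries scaled by TMM, and 3 libraries at 48 h tested against 3 at 24 h with edgeR 4.0.16 in R 4.3.3 (quasi-likelihood test, no covariate, Benjamini-Hochberg adjustment over all genes tested). The change with time in treated cells and its difference from untreated cells (interaction of time and treatment, 12 libraries) were tested likewise. An exact permutation test of 3 against 3 cannot go below 0.1 and was not used.

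The comparison, the 30 gene lists and the markers were chosen with earlier results of these data known. Genes were named by rule: the 12 largest rises and 12 largest falls among called genes with at least 10 CPM and no overlap, up to 4 called members per list with the largest absolute change and at least 5 CPM, the factor that heads a list, the markers, and the 3 largest called differences per treatment. Further list members are given after their values were seen, to describe the list. Alternatives were DESeq2 1.42.0, RLE size factors, library totals, other filters, a fit of all 54 libraries, a replicate block, leaving out each library, and offsets for length and GC content. On simulated counts (14192 genes, with the same fixed dispersion for all), 100% of 2-fold and 51% of 1.25-fold changes were recovered, with 11 false calls. Replicates differed by 2.75 to 11.5 times the variance of counting, so no pair agreed within counting error. The standard errors come from the quasi-likelihood test and so rest on the spread between replicates, not on the total counts alone. PCR duplicates were not examined. Promoter and transcript sequences are from RefSeq (GRCh38.p14) and GENCODE 29 and were matched by symbol, while the counts rest on hg19. Some genes of the lists are not reported here by name.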

Additional observations from a re-analysis of the deposited data

Results flagged for a closer look

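Differences between treated and untreated cells in the 24 to 48 h change, from the interaction term in edgeR's quasi-likelihood test, numbered 3100 genes for MOO, 6258 for N_2 and 232 for CKI. For MOO the largest among genes called in untreated cells were NGFR, a neurotrophin receptor, at -2.02 ± 0.138 (SE), STMN3, a regulator of microtubules, at -1.76 ± 0.130 (SE) and ALDOC at -1.63 ± 0.124 (SE), with adjusted p of 1.29e-07, 1.89e-07 and 2.26e-07. All 3 rose in untreated cells, by 0.31, 0.42 and 0.98, and changed by -1.71, -1.34 and -0.65 on the log2 scale in MOO cells, with adjusted p of 9.12e-08, 3.23e-07 and 5.61e-05. The rise of NGFR in untreated cells was not called without 24 h replicate 2 (adjusted p 0.053). With all 54 libraries in 1 fit the rises of NGFR and STMN3 in untreated cells were not called (adjusted p 0.523 and 0.103).

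For N_2 they were HBA1 at 3.31 ± 0.823 (SE), EGLN3 at -2.95 ± 0.173 (SE) and GINS2 at -2.83 ± 0.339 (SE), with adjusted p of 0.00587, 2.79e-07 and 4.05e-05. HBA1 belongs to the globin trace of the 24 h libraries. N_2 libraries at 48 h had 33 to 54 counts of HBA1, untreated ones 1 to 3. HBB, which the 24 h trace also holds, was at 0 in these N_2 libraries. Whether their HBA1 counts have the same source as the trace was not tested. EGLN3 rose by 0.63 in untreated cells and fell by 2.28 with N_2. GINS2 fell in both, with log2 fold changes of -0.44 and -3.24.

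For CKI they were MIR6087 at -1.64 ± 0.281 (SE), NEAT1, a nuclear long noncoding RNA, at 1.38 ± 0.258 (SE) and SLC7A11, the cystine transporter, at -1.31 ± 0.275 (SE), with adjusted p of 0.0173, 0.0227 and 0.0339. Each of these 3 was lost in at least 6 of the 12 fits that left out 1 library. NEAT1 fell in untreated cells from 427, 366 and 500.1 CPM to 331, 311 and 279.9 CPM. That fall was not called with all 54 libraries in 1 fit (adjusted p 0.131). The change of NEAT1 in CKI cells, with CKI replicate 1 at 24 h included, was 0.89 and not called (adjusted p 0.0663).

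Globin counts of at least 100 were also found in 4 of the 6 OO and N_3 libraries at 24 h, which entered no comparison here. OO holds the compounds Omt and Ospc, and N_3 is CKI without Mac, Omt and Ospc.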

How the results depend on the processing

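With RLE size factors, library totals, DESeq2, no filter, a filter at 1 CPM, or offsets for length and GC content, 3353 to 4301 genes were called between 24 and 48 h in untreated cells, each within 1.5 times 3571. All 54 libraries in 1 fit gave 1136 genes, a replicate block 1966 and a log2 fold change of at least 1 gave 93, the last by its construction. Leaving out 1 library gave 1659 (24 h replicate 2) to 4443 (24 h replicate 3). The cause was not tested. Deviations from the group mean gave correlations of -0.22, 0.03 and -0.12 for same-numbered libraries, and 24 h replicate 3 correlated most with 48 h replicate 1 (0.25). With 3 libraries per group, centred on their own mean, such values cannot exclude a pairing by number. In CKI cells edgeR called 0 to 4904 genes between the times when 1 library was left out. The 0 came without 48 h replicate 1, 2 or 3, where 2609, 2005 and 2003 had an unadjusted p under 0.05, and the 4904 without 24 h replicate 1. The replicate block called 0, with 2341 at an unadjusted p under 0.05. The difference of CKI from untreated cells numbered 19 to 1418 genes when 1 library was left out, 49 with the replicate block and 847 with DESeq2, the highest without CKI replicate 1 at 24 h. Without N_2 replicate 3 at 24 h the difference of N_2 numbered 8628 genes.

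Of the values of named genes, 881 of 954 kept direction and call when 1 library was left out, and 1178 of 1271 under the other settings. The reversals were of genes not called: ATF4 (0.0014 with library totals, 0.027 without 24 h replicate 1 and 0.013 without 48 h replicate 1, with -0.052 as the lowest value when 1 library was left out), MYC (-0.019 without 48 h replicate 3 to 0.078 without 48 h replicate 1) and SRF (-0.048 with the offsets). The 6 untreated libraries held 18649291 to 24708584 counts, and their biological coefficient of variation was estimated at 0.0639. The simulation used a fixed dispersion, the same for all genes, in place of this estimate, and changed 100 genes per fold. It recovered 51% of 1.25-fold changes, so that smaller changes could be missed.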
